A study of Gallus gallus with 5 samples.

Results

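The 8 genes described here encode transcription factors of epidermis: TP63, the grainyhead-like factors GRHL1, GRHL2 and GRHL3, the epithelial ETS factors ELF3 and EHF, and the Krüppel-like factors KLF4 and KLF5. They were taken by gene name from the 17108 genes of the expression table. All 8 are present, each as 1 entry, and all passed the filter of a mean of at least 1 FPKM (fragments per kilobase of transcript, scaled to the mapped fragments of a library) that 11031 genes passed. The RNA came from regenerating wing flight feather follicles of chicken, a plucked follicle being induced to grow a new feather. Wild type had 2 libraries, and lnc7831 knockdown, lnc3500 knockdown and Wnt5a overexpression had 1 each, every library holding a pool of 5 follicles. The design text names the lentiviral vector pLVX-Zsgreen for overexpression and pLL3.7 for knockdown. The labels give no empty-vector group, no strain, no age, no sex and no count of birds. The titles of the wild-type libraries alone carry the tag T4, which the labels leave unexplained, so vector, tag and treatment cannot be told apart.

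TP63 belongs to the p53 family and is the factor without which mice form no stratified epidermis. It is highest in the basal layer, where it keeps genes of basal keratins, hemidesmosomes and desmosomes active. Grainyhead-like factors act on junction and barrier genes; in mice GRHL2 keeps E-cadherin and claudin genes on, GRHL1 acts on desmosomal cadherins and GRHL3 is needed for the skin barrier and for wound closure. ELF3 and EHF are ETS factors restricted to epithelia that act on differentiation genes. In mammalian epidermis KLF4 is a suprabasal factor needed for the barrier, while KLF5 is found mainly in the proliferating basal compartment. A feather follicle holds an epidermal collar and feather epithelium around a dermal papilla and mesenchymal pulp. How much of the RNA of each factor, KLF4 and KLF5 included, came from the epithelial part was not tested.

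The labels name dermal papilla as the source and feather follicle as the tissue. Both epithelial and dermal transcripts were present in every library: the 20 keratinocyte markers found in the table summed to between 3340 and 12236 FPKM, and the 14 dermal markers to between 2933 and 8097. Of the keratinocyte markers, KRT5 and RAB25 were listed at 0 in all 5 libraries. The wild-type libraries held WNT5A at 29.7 and 64.3 FPKM, the library carrying the overexpression label at 75.7, lnc7831 knockdown at 162 and lnc3500 knockdown at 43.8, so its own level does not set that library apart. It is called the Wnt5a-labelled library here. Neither long non-coding RNA has an entry by name. FPKM keep no read counts, so depth is unknown. The median tested gene was higher in each treated library than in wild type as deposited, by 0.54 for the Wnt5a-labelled library, 0.64 for lnc7831 knockdown and 0.56 for lnc3500 knockdown on the log2 scale. Values given in threes below keep that order. Differences below are therefore given after median centring, in which each library is divided by its median ratio to the other libraries, as log2 of centred FPKM + 1. Levels are FPKM as deposited unless called centred. In bulk RNA of a follicle, fewer cells of a type and less RNA per cell cannot be told apart.

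TP63 stood higher in all 3 treated libraries than in either wild-type library. Its level was 12.1 FPKM in wild-type library 1, 21.3 in wild-type library 2, 68.3 in the Wnt5a-labelled library, 50.8 in lnc7831 knockdown and 60.9 in lnc3500 knockdown. Treated and wild-type values did not overlap, as deposited or centred. All 3 treated libraries were above both wild types for 67.2% of all genes as deposited and for 15.1% after centring. On the log2 scale TP63 exceeded the wild-type mean by 1.44, 0.91 and 1.24, each with an SE of 0.47. TP63 had a level above 60.3% and 73.6% of tested genes in wild type and above 81.8% to 86.8% in the treated libraries. The gap between a treated library and the higher wild-type library exceeded the wild-type range of 0.71 in the Wnt5a-labelled library (1.08) and in lnc3500 knockdown (0.89), but not in lnc7831 knockdown (0.55).

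ELF3 and EHF, the ETS pair, behaved unlike each other. ELF3 was at 0.712 and 1.41 FPKM in the wild types, 11.8 in the Wnt5a-labelled library, 7.42 in lnc7831 knockdown and 8.91 in lnc3500 knockdown. Its level was above only 3.25% and 6.45% of tested genes in wild type, and above 27.9% to 44.9% in the treated libraries. The log2 differences were 2.26 (SE 0.40), 1.56 and 1.86, the largest of the 8 genes in each treated library. In the same order, 99.5%, 98.8% and 99.4% of tested genes had a difference no larger. ELF3 lay so low in wild type that the added 1 FPKM compresses these values: in centred FPKM without it, the Wnt5a-labelled library was 10.7-fold above wild-type library 1 and 5.65-fold above library 2.

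EHF was at 15.4 FPKM in the first wild-type library and 5.61 in the second, and at 19.97, 20.8 and 17.3 FPKM in the treated libraries. After centring, all 3 treated libraries lay between the wild-type libraries. Its wild-type libraries differed by 1.40 on the centred log2 scale, the widest wild-type gap of the 8 genes and the only one of at least 2-fold, where 12.1% of tested genes were that far apart in either direction. Differences from the wild-type mean were 0.45, 0.40 and 0.23 (SE 0.70), well inside that gap.

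GRHL1 was the most abundant grainyhead-like factor, with 80.2% to 86.4% of the summed FPKM of the 3 in every library. Wild-type library 1 held 49.7 FPKM and library 2 held 26.8, against 66.0 in the Wnt5a-labelled library, 59.6 in lnc7831 knockdown and 54.7 in lnc3500 knockdown. After centring the 3 treated libraries lay between the wild types, and the differences from wild type were 0.25, -0.01 and -0.05 (SE 0.55). As deposited the last 2 were 0.69 and 0.57, so the sign of the GRHL1 difference depends on the scaling.

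GRHL2, the factor tied to E-cadherin and claudin genes in mice, was the lowest of the family in wild type, at 2.73 and 2.72 FPKM. It had 8.58 FPKM in the Wnt5a-labelled library, 4.88 in lnc7831 knockdown and 4.62 in lnc3500 knockdown. Its wild-type libraries differed by only 0.05 on the centred log2 scale, the closest pair among the 8 genes. Against that pair the log2 difference was 0.88 (SE 0.32) in the Wnt5a-labelled library, while both knockdown libraries were at 0.10. GRHL2 made up 10.4% of the grainyhead-like FPKM in the Wnt5a-labelled library, above the range of 4.74% to 8.25% of the other 4 libraries.

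GRHL3, the barrier and wound-closure factor of mice, had 5.12 and 3.40 FPKM in wild type, then 7.67, 9.30 and 7.31 FPKM in the treated libraries. After centring, lnc7831 knockdown was above both wild types and the other treated libraries lay between them. Its differences of 0.23, 0.38 and 0.14 were each smaller than the SE of 0.39.

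KLF4 had 20.2 and 39.3 FPKM in wild type and 75.2, 82.3 and 80.3 FPKM in the treated libraries. The treated libraries were close together and above both wild types, with log2 differences of 0.79, 0.81 and 0.85 (SE 0.53). The gaps to the higher wild-type library, 0.36 to 0.42, were smaller than the 0.87 between the wild types.

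KLF5 stood at 23.3 and 33.9 FPKM in the wild types, 95.9 in the Wnt5a-labelled library, 53.4 in lnc7831 knockdown and 96.1 in lnc3500 knockdown. After centring, 2 treated libraries stood above both wild types and lnc7831 knockdown lay between them. Its log2 differences from wild type were 1.15, 0.20 and 1.11 (SE 0.41). KLF5 therefore separated lnc7831 knockdown from the other treated libraries in value, by 0.94 below the Wnt5a-labelled library and by 0.91 below lnc3500 knockdown, with an SE of 0.47 for each.

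**Figure D1:**
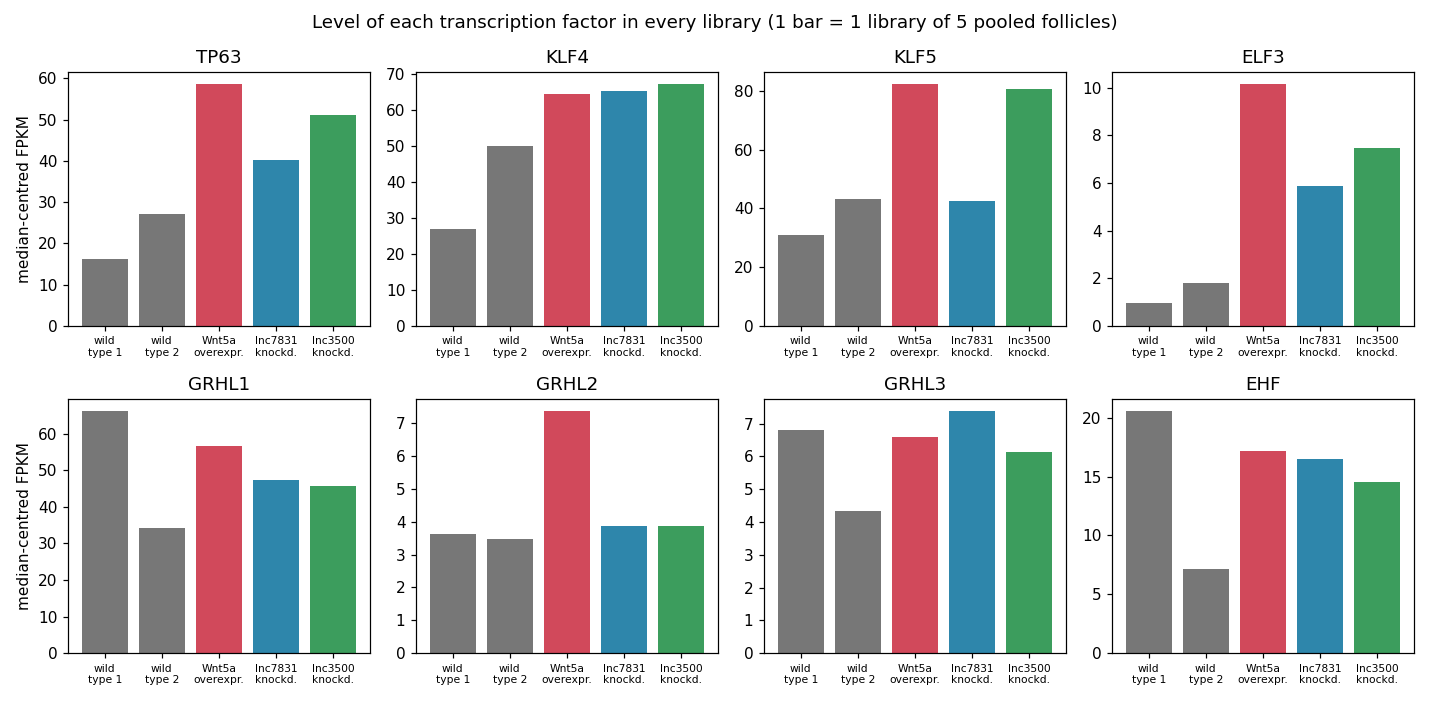
Median-centred FPKM of each factor, 1 bar per library, each panel with its own axis from 0. TP63 and ELF3 are higher in every treated library than in both wild types (ELF3 from 5.89 to 10.2 centred FPKM against 0.949 and 1.80), whereas GRHL1 and EHF are highest in wild-type library 1. Of all genes, 15.1% are above both wild types in all 3 treated libraries after centring.

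No factor was called in any comparison with wild type by limma at an adjusted p below 0.05. The smallest adjusted p was 0.987, for ELF3 in the Wnt5a-labelled library. The same test called 0.00907% of all genes in that library, 0.0363% in lnc7831 knockdown and 0% in lnc3500 knockdown. Before adjustment, p was under 0.05 for 2 of the 8 factors in the Wnt5a-labelled library (TP63 and ELF3) against 4.01% of all genes. In each knockdown this held for ELF3 alone, against 3.04% of genes in lnc7831 knockdown and 3.08% in lnc3500 knockdown. For ELF3 the 95% limma interval of the difference ran from 1.11 to 3.40 in the Wnt5a-labelled library, from 0.41 to 2.71 in lnc7831 knockdown and from 0.71 to 3.004 in lnc3500 knockdown. For TP63 it ran from 0.10 to 2.78, from -0.44 to 2.25 and from -0.10 to 2.59. These intervals are unadjusted for the number of genes and rest on the spread of the wild-type pair, 1 residual degree of freedom.

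Without a test, TP63 and ELF3 exceeded both wild types by 2-fold or more in the Wnt5a-labelled library, 2 of 8 factors against 2.18% of all genes. ELF3 alone did so in each knockdown, 1 of 8 against 1.64% and 1.43%. GRHL2 lay just short of the rule in the Wnt5a-labelled library: without the added 1 FPKM it was 2.03-fold and 2.13-fold above the wild types in centred FPKM. The count of factors at least 2-fold below both wild types was 0 in each, where the share of all genes was 1.74%, 1.32% and 1.64%. Values as deposited gave 4, 3 and 4 factors at least 2-fold above both, with KLF5 and GRHL2 added in the first library, KLF4 and TP63 in the second and KLF4, KLF5 and TP63 in the third, against 8.20%, 10.5% and 8.17% of all genes.

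Simply lying above both wild types was more common. In each treated library 5 of 8 factors did so after centring, where the shares of all genes were 31.8%, 31.0% and 31.9%. TP63, ELF3, KLF4 and GRHL2 did so in all 3 treated libraries, 4 of 8 against 15.1% of all genes. As deposited it was 8 of 8, but then against 67.2% of all genes. After centring, GRHL2 exceeded the higher wild-type library by only 0.07 in each knockdown. The median difference over the 8 factors was 0.84, 0.39 and 0.54, against medians over all tested genes of 0.00 in each.

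**Figure D2:**
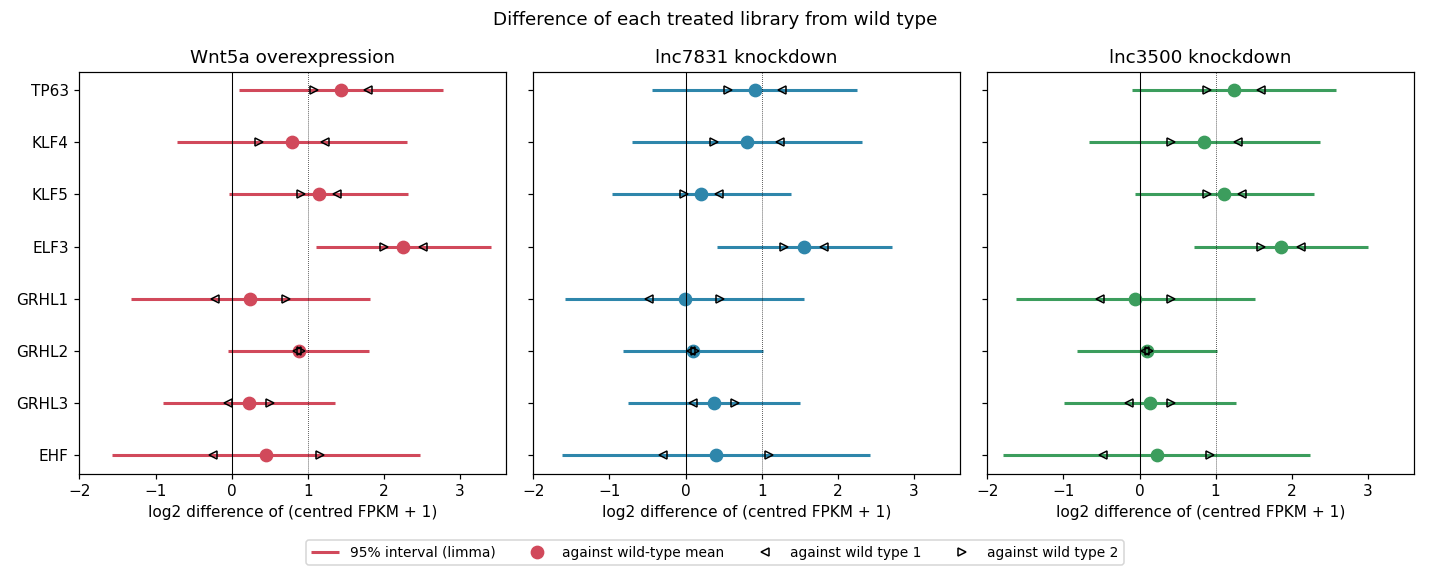
Log2 difference of each treated library from wild type for each factor. Filled points are against the wild-type mean with the 95% limma interval, open triangles are against each wild-type library alone, and the dotted line marks 2-fold. The ELF3 intervals lie above 0 in all 3 panels, from 0.41 at the lowest, and the triangles of EHF and GRHL1 lie on both sides of 0 in all 3.

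Between treated libraries, 6 of 8 factors were higher in the Wnt5a-labelled library than in lnc7831 knockdown, with a median log2 difference of 0.39, and 7 of 8 were higher than in lnc3500 knockdown, with a median of 0.21. Between the knockdowns 4 of 8 were higher in lnc7831 knockdown, with a median of -0.02. The medians over all tested genes were 0.00, 0.01 and 0.00 in these pairs. In the first pair the differences of KLF5 (0.94), GRHL2 (0.78), ELF3 (0.70) and TP63 (0.53) were above those of 96.8%, 95.1%, 93.9% and 90.2% of tested genes. No factor was 2-fold or more apart in any pair, 0 of 8 each, against 6.14% of all genes for the Wnt5a-labelled library and lnc7831 knockdown, 1.74% for it and lnc3500 knockdown, and 5.98% for the 2 knockdowns. Limma called none of the factors, and 0.0453%, 0% and 0.0272% of all genes in the same pairs. Before adjustment, p was under 0.05 for 0 of 8 in each pair, against 1.95%, 0.471% and 1.77% of genes. The widest difference was KLF5 between the Wnt5a-labelled library and lnc7831 knockdown, with a 95% limma interval from -0.41 to 2.30. GRHL2 was 0.78 higher in the Wnt5a-labelled library than in either knockdown, with intervals reaching from -0.29 to 1.85. KLF4 was the most even of the factors across the treated libraries, with differences of -0.02, -0.06 and -0.04, though intervals as wide as -1.81 to 1.69 leave differences of over 2-fold possible.

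Of the 8 factors, 4 were higher in wild-type library 2, where 50.5% of all tested genes were. TP63, KLF4, KLF5 and ELF3 were higher there by 0.71, 0.87, 0.46 and 0.52 after centring, and GRHL1, GRHL3 and EHF were lower there, by 0.93, 0.55 and 1.40. GRHL2 was within 0.05. The same split of direction held as deposited. Of the 17 other epidermal factors tested, 12 were higher in library 2 and 5 in library 1, with a median of 0.26. Among these 5, OVOL2, an epithelial zinc finger factor, had 5.91 and 3.45 FPKM in wild-type libraries 1 and 2. The basal keratin genes KRT14 (621 and 1743) and KRT15 (29.5 and 285) went the other way. These 3 genes were chosen after their values were seen. Of 19 tested TP63-dependent genes, 7 were at least 2-fold higher in wild-type library 2 and 0 at least 2-fold higher in library 1, and of 9 grainyhead-dependent genes 1 and 2. Of all tested genes 12.1% were that far apart in either direction. The 18 tested keratinocyte markers split evenly in direction, 9 higher in each, with a median difference of 0.00. Of these 18, 6 were at least 2-fold higher in wild-type library 2 and 2 at least 2-fold higher in library 1. The lists overlap, as 10 of the 19 TP63-dependent genes are also keratinocyte markers.

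Likeness of pattern among the factors was measured as the root mean square difference of their profiles over the 5 libraries, on the centred log2 scale with each gene's mean removed. The nearest pairs were GRHL1 with GRHL3 (0.20) and GRHL1 with EHF (0.22), then KLF4 with TP63 (0.26) and KLF5 with TP63 (0.27). The most distant were ELF3 with GRHL1 (1.02) and ELF3 with EHF (0.99), although ELF3 and EHF belong to the same ETS family. ELF3 varied most over the 5 libraries (SD 1.08, above 97.1% of tested genes on the same scale), TP63 came next (SD 0.73, above 92.3%) and GRHL3 varied least (SD 0.25, above 42.9%).

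**Figure D3:**
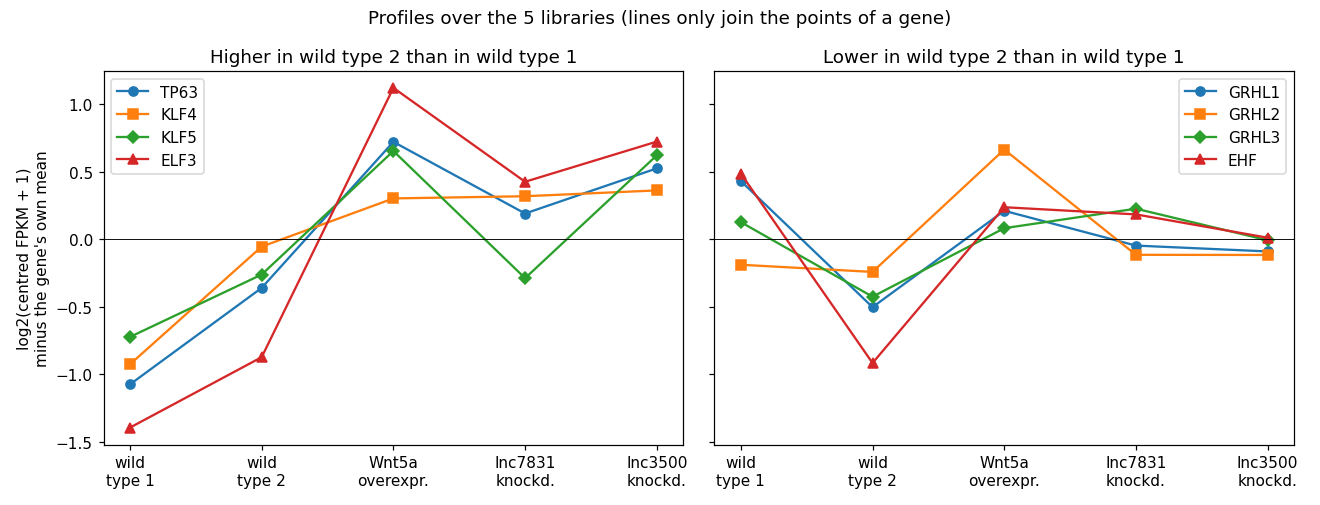
Profile of each factor over the 5 libraries, as log2 of centred FPKM + 1 minus the gene's own mean, split by which wild-type library was higher. ELF3 spans the most, 2.52 log2 units, and KLF5 in lnc7831 knockdown lies within its wild-type range.

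Ratios between factors within a library do not depend on the factor a library is divided by. The EHF/ELF3 ratio of FPKM was 21.7 in wild-type library 1 and 3.98 in library 2, then 1.69 in the Wnt5a-labelled library, 2.80 in lnc7831 knockdown and 1.94 in lnc3500 knockdown. It was lower in every treated library than in both wild types, but the 5.45-fold spread between the wild types was larger than the gap between wild-type library 2 and any treated library. ELF3 made up 4.41% and 20.1% of the ETS pair in wild type and 37.2%, 26.3% and 34.0% in the treated libraries. The TP63/GRHL1 ratio was 0.244 and 0.795 in wild type and 1.03, 0.852 and 1.11 in the treated libraries, so wild-type library 1 was far from the other 4. The KLF4/KLF5 ratio was 1.54 in lnc7831 knockdown, above the 0.784 to 1.16 of the other libraries. GRHL1/GRHL2 was lowest in the Wnt5a-labelled library, at 7.69 against 9.86 to 18.2 elsewhere. TP63/KLF4 stayed between 0.542 and 0.909 and TP63/KLF5 between 0.520 and 0.951 in all 5 libraries.

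**Figure D4:**
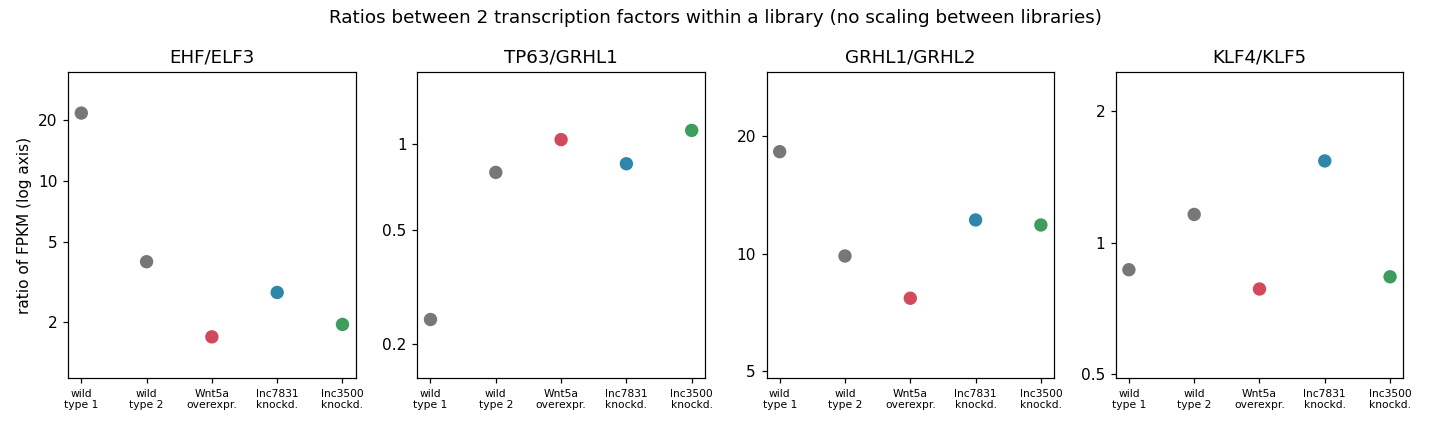
Ratio of FPKM between named factors within each library, on log axes. Grey points are wild type. EHF/ELF3 is below both wild types in every treated library, and TP63/GRHL1 separates wild-type library 1 (0.244) from the other 4 libraries.

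Keratinocyte markers moved with several of the factors. Of the 18 tested markers, 18 were above the wild-type mean in the Wnt5a-labelled library, 15 in lnc7831 knockdown and 18 in lnc3500 knockdown, with median log2 differences of 1.40, 0.49 and 1.03. Their centred FPKM summed to 4448 and 5488 in wild type and to 10505, 8001 and 8806 in the treated libraries. The part of this in the differences of the factors was not tested. Set against the mean log2 level of these 18 markers in the same library, a measure chosen after the data were seen and taken on log2 of deposited FPKM + 1, ELF3 was higher than in both wild types in all 3 treated libraries. Relative to the markers it was above wild-type library 1 by 0.81, 0.66 and 0.72 and above library 2 by 0.73, 0.58 and 0.64. With centred values these were larger for ELF3, 1.04, 0.91 and 0.95 against library 1 and 0.87, 0.75 and 0.79 against library 2. Over the 8 factors 47 of 48 such values kept their sign, the exception being EHF in the Wnt5a-labelled library against library 2 (-0.013 as deposited, 0.033 centred). TP63 on this measure was at 0.31, 0.34 and 0.42 against wild-type library 1 but within 0.07 of library 2, at -0.04, -0.01 and 0.07.

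GRHL1 and GRHL2 were below both wild types in every treated library on this measure. The marker mean itself was 6.18 and 6.54 in wild type and 7.66, 7.09 and 7.35 in the treated libraries, on the centred log2 scale. A gene level with wild type after centring therefore falls below both wild types here. The share of all genes that did so was not measured, so lying below the markers is no result particular to these factors. GRHL2 relative to the markers was at -0.73, -0.98 and -1.22 against wild-type library 1 and at -0.31, -0.56 and -0.80 against library 2. GRHL2 was at only 2.73 and 2.72 FPKM in wild type, so the added 1 FPKM compresses its rise more than that of the abundant markers. Its values here are more negative for that reason, by an amount that was not measured. GRHL1 was at -1.69, -1.38 and -1.68 and at -0.41, -0.10 and -0.40. In the Wnt5a-labelled library GRHL3 (-1.59 and -0.70), KLF4 (-0.25 and -0.76) and KLF5 (-0.10 and -0.20) were also below both wild types relative to the markers. In lnc3500 knockdown GRHL3 was below both as well, at -1.37 and -0.48. KLF5 was below both in lnc7831 knockdown, at -0.47 and -0.58, and above both in lnc3500 knockdown, at 0.18 and 0.08.

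Markers of other cells were measured beside these values. Of 11 leukocyte markers, 9, 8 and 10 were below the wild-type mean in the 3 treated libraries, with summed centred FPKM of 197 and 225 in wild type and 133, 166 and 98.0 in treatment. The 14 dermal papilla and fibroblast markers had medians of 0.06, 0.51 and 0.54, summing to 3907 and 3808 centred FPKM in wild type and to 4329, 6423 and 5266 in the treated libraries. The melanocyte (7 genes in the table), endothelial (7) and muscle (4) markers summed to 29.1 to 48.4, 113 to 159 and 1596 to 3031 centred FPKM over the libraries. Their part in the differences of the factors was not tested.

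Other epidermal transcription factors gave a point of comparison. Of 26 listed, 19 were found by name and 17 were tested; 13, 7 and 14 of these were above the wild-type mean, with medians of 0.26, -0.08 and 0.29. TRIM29, an epithelial TRIM family protein, was the 1 of 17 past the 2-fold rule in the Wnt5a-labelled library, against 2.18% of all genes. In the knockdowns 0 of 17 were above both wild types by that rule, against 1.64% and 1.43%. TRIM29 had 321 FPKM in the Wnt5a-labelled library against 70.4 and 87.3 in wild type, 1.42 higher (SE 0.40) on the centred log2 scale. HOPX, a homeodomain cofactor of epidermal differentiation, had 20.9 and 60.4 FPKM in wild type and 146, 61.4 and 140 FPKM in the treated libraries. FOXN1, the nude-locus factor of hair and feather epithelium, had 6.86 and 8.996, then 24.7, 9.45 and 24.8. Both were low in lnc7831 knockdown relative to the other treated libraries, as KLF5 was, and TFAP2C, an AP-2 factor of early epidermis, went the other way, with 100.4 FPKM in lnc7831 knockdown against 38.4 and 33.3 in the other treated libraries. HOPX, FOXN1 and TFAP2C were chosen after their values were seen. Between lnc7831 and lnc3500 knockdown 13 of the 17 were lower in lnc7831 knockdown, with a median of -0.57, against 0.00 over all genes.

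Paralogs of the 8 factors were counted in the same way. Of 16 tested, 9, 12 and 10 were above the wild-type mean, with medians of 0.05, 0.32 and 0.18. ELF5, another epithelial ETS gene, was the 1 of 16 past the 2-fold rule, in lnc7831 knockdown, against 1.64% of all genes. It had 8.14 FPKM there and 0.525 and 1.19 in wild type, which is 1.85 higher (SE 0.45) on the centred log2 scale. ELF5 lay so low in wild type that the added 1 FPKM compresses this value, as for ELF3. Its wild-type mean was also below the filter of 1 FPKM. ELF5 was thus among the 16 only through its level in the treated libraries, so its count past the rule is no separate support. It had 4.05 FPKM in the Wnt5a-labelled library and 2.03 in lnc3500 knockdown. ELF5 was thus highest in the library where ELF3 was lowest of the treated libraries. TP73, the sister gene of TP63, had 3.70 and 14.7 FPKM in wild type and 11.97, 14.5 and 10.9 in the treated libraries, with wild-type library 1 the low one; it was chosen after its values were seen.

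Genes known to depend on these factors in mammals were examined next. Of 19 tested TP63-dependent genes, 17, 14 and 16 were above the wild-type mean, with medians of 1.24, 0.50 and 0.82; 10 of the 19 are also among the keratinocyte markers. Past the 2-fold rule were 5 of the 19 in the Wnt5a-labelled library, 4 in lnc7831 knockdown and 1 in lnc3500 knockdown. In the same order, 2.18%, 1.64% and 1.43% of all genes passed this rule in the upward direction. COL17A1, the hemidesmosome collagen, was at 14.1 and 70.1 FPKM in the wild types, 251 in the Wnt5a-labelled library, 309 in lnc7831 knockdown and 165 in lnc3500 knockdown. ITGA6, the hemidesmosome integrin chain, was past the rule in all 3, with 16.1 and 12.6 FPKM in wild type and 61.0, 58.5 and 59.8 in the treated libraries.

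Of the 9 tested grainyhead-dependent genes, 9, 6 and 8 were above the wild-type mean, with medians of 0.73, 0.18 and 0.34; 4 of the 9 are keratinocyte markers too. CLDN4 and CDH1, which GRHL2 keeps on in mice, were the 2 past the 2-fold rule in the Wnt5a-labelled library and in lnc3500 knockdown. That is 2 of 9 in each, against 2.18% and 1.43% of all genes. CDH1, E-cadherin, had 30.9 and 48.1 FPKM in wild type and 166, 137 and 179 in the treated libraries. CLDN4 had 7.01 and 17.0 FPKM in wild type, then 84.4, 20.7 and 64.0. In lnc3500 knockdown the centred log2 difference from wild type was 1.84 for CLDN4 and 0.10 for GRHL2. As deposited the GRHL2 difference there was 0.59, from 2.73 and 2.72 FPKM in wild type to 4.62. CLDN4 as deposited went from 7.01 and 17.0 FPKM to 64.0. A link between these genes was not tested. The 6 tested mesenchymal factors of the ZEB, SNAI, TWIST and PRRX families oppose epithelial fate in mammals. Their medians were -0.14, 0.11 and -0.17, with 0 members past the 2-fold rule in either direction. Of all genes, 2.18%, 1.64% and 1.43% were past it above both wild types and 1.74%, 1.32% and 1.64% below both. In none of these lists did limma call a gene in a comparison with wild type.

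**Figure D5:**
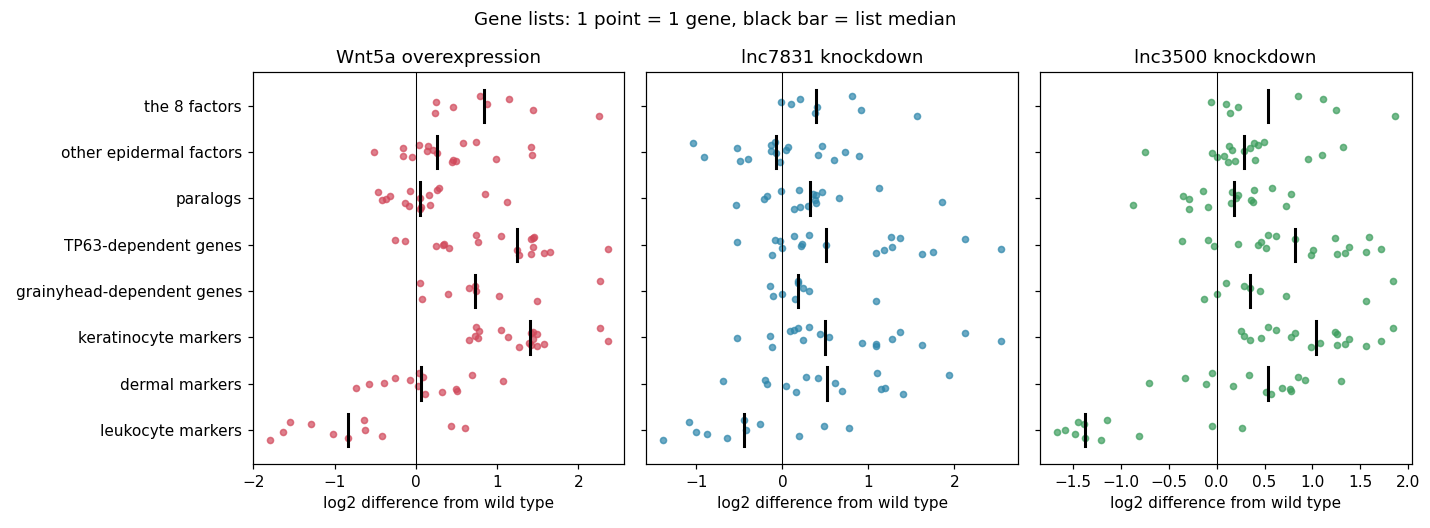
Log2 difference from wild type of every tested gene of each list, 1 point per gene, with the list median as a black bar and its own axis range in each panel. The median of the 8 factors (0.84, 0.39 and 0.54) lies below that of the keratinocyte markers in every panel, and leukocyte markers lie mostly below 0.

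The genes whose profile was most like that of a factor were sought among 9809 other named genes above 0 in all 5 libraries. With 5 libraries, near matches can be many: 1148 genes lay within 0.2 of GRHL3, 531 of GRHL1, 264 of KLF4 and 101 of GRHL2. KLF5 had 59 such genes, TP63 40, EHF 39 and ELF3 4. Nearest to ELF3 were PROM2 (0.07), a membrane protein of epithelial protrusions, S100A16 (0.09) and ABHD12B (0.19). PROM2 had 23.0 and 37.6 FPKM in wild type and 198, 137 and 172 in the treated libraries. The added 1 FPKM compresses ELF3 far more than PROM2, so the match is of that scale: in centred FPKM without it, PROM2 in the Wnt5a-labelled library was 5.56-fold above wild-type library 1, where ELF3 was 10.7-fold above. Nearest to TP63 were FBP1 (0.08), an enzyme of gluconeogenesis, the DNA repair gene XPA (0.08) and CNTF (0.09). FBP1 (1.37 and 2.65 FPKM) and CNTF (1.53 and 3.16) lay low in wild type, so their matches are also of that scale. Without the added 1 FPKM, FBP1 in the Wnt5a-labelled library was 4.71-fold above wild-type library 1 in centred FPKM, where TP63 was 3.63-fold above.

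EHF was nearest to ELOVL4 (0.07), an enzyme that makes the very long fatty acids of the skin barrier, which had 119 and 52.5 FPKM in wild type and 163, 183 and 141 in the treated libraries. GPR176 and EPHA1 followed, at 0.11 each. GRHL1 was nearest to ACP1 (0.03), and GRHL2 to AGXT (0.09) and the cell cycle inhibitor gene CDKN1A (0.10). KLF4 was nearest to FAM69B (0.04) and TRAF4 (0.04), and KLF5 to GRP (0.04) and MAP3K8 (0.06). GRP had only 0.151 and 0.503 FPKM in wild type, so its match to KLF5 is also one of the compressed scale. The same holds for the match of AGXT, at 0.602 and 0.570 FPKM in wild type, to GRHL2.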

How the data were processed

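Total RNA libraries of 5 pooled follicles each were profiled. The authors deposited 1 FPKM value per gene and library. TopHat2 2.1.0, Cufflinks 2.2.1 and galGal4 are named in the submitters' processing notes; annotation, strand and the handling of multiply mapped reads are not given in the sources used here. Gene names are those of the table.

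Libraries were centred on the median of their gene-wise ratios to the geometric mean over libraries (factors 0.751, 0.784, 1.16, 1.26 and 1.19), 1 was added and log2 taken. The 11031 genes averaging 1 FPKM or more went into limma 3.58.1 (R 4.3.3) with a mean-variance trend. A single model held all 5 libraries; tests were two-sided with Benjamini-Hochberg adjustment over these genes and a threshold of 0.05. The wild-type pair gives the only residual degree of freedom, with 2.70 prior degrees of freedom (median); the spread of a treated library, which has no repeat, is assumed equal to that of the pair. Nothing says that the wild-type repeats came from separate birds, so p-values measure the spread between these libraries, which may be technical. In simulated data for the Wnt5a-labelled library against wild type (11031 genes, 200 changed, 5 runs), the recovery at a log2 change of 1 or 2 was 0%, at 4 it was 13.6% and at 8 it was 88.4%; false calls averaged 4.4 per run.

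The 2-fold rule compares centred FPKM + 1 with both wild-type libraries. Genes named were the 8 factors, the 2 largest past that rule in each list and the 3 nearest profiles per factor; exceptions are marked, and a few genes that the rule names are not reported here. The factors and lists were chosen with earlier results of these data known. Alternatives were values as deposited, quantile normalisation, a pseudocount of 0.1, no filter, no trend and leaving out each wild-type library.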

Additional observations from a re-analysis of the deposited data

How the results depend on the processing

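Limma called 0 of the 8 factors in each of the 6 comparisons under all 5 alternatives that allow a test, with adjusted p from 0.315 to 1. No paired analysis was possible because only the wild-type group has replicates. Leaving out a wild-type library leaves 0 residual degrees of freedom and so gives values with no test. ELF3, TP63, KLF4 and GRHL2 stayed above wild type under every alternative run. For GRHL2 in the knockdowns the difference was small beside its SE of 0.32. It fell to 0.053 in lnc7831 knockdown with quantile normalisation and to 0.083 in lnc3500 knockdown without wild-type library 2. As deposited, GRHL1 was at 0.69 in lnc7831 knockdown and 0.57 in lnc3500 knockdown; between treated libraries, EHF was at -0.055 and KLF5 at -0.0022 (the Wnt5a-labelled library against lnc7831 and lnc3500 knockdown) and KLF4 at 0.035 (lnc7831 against lnc3500 knockdown). With quantile normalisation GRHL2 and KLF4 were at -0.10 and 0.0018 in that last pair. The cause was not tested. Against 1 wild-type library alone, in the order of libraries used above, GRHL1 ranged from -0.23 to 0.72, -0.49 to 0.46 and -0.51 to 0.41, and EHF from -0.25 to 1.16, -0.31 to 1.11 and -0.47 to 0.93. GRHL3 ranged from -0.050 to 0.51 in the first and -0.13 to 0.42 in the third, and KLF5 from -0.025 to 0.43 in lnc7831 knockdown.

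Factors at least 2-fold above both wild types numbered 4, 3 and 4 as deposited and 3, 1 and 1 with a pseudocount of 0.1. Against 1 wild-type library they ranged from 3 to 4, 2 to 3 and 1 to 4, the higher counts all without library 2. Passing against 1 library is a looser rule than passing against both. The shares of all genes are given above for values as deposited. For the pseudocount of 0.1 and for 1 wild-type library they are not given, so those counts have no background. Over all genes, limma calls without the filter were 183, 260 and 129 against wild type and 332, 234 and 285 between treated libraries, and with a pseudocount of 0.1 they were 0 in each. As deposited the first comparison had 0. For the Wnt5a-labelled library against lnc3500 knockdown, quantile normalisation gave 2 and no trend 1, and no trend gave 1 for lnc7831 against lnc3500 knockdown.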
